A study of Mus musculus with 4 samples.

Results

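Tumor necrosis factor (TNF) and the genes around its receptors were followed through single-cell libraries of mouse gingiva, the soft tissue that surrounds the teeth. The genes were chosen by symbol and are 8 of the 31253 genes in each count matrix. They are the ligands Tnf and Ltb, the receptors Tnfrsf1a and Tnfrsf1b, the inhibitors Nfkbia and Tnfaip3, and the pathway genes Birc3 and Tnfaip2. All 8 were found in all 4 libraries, and each was measured in every cell class. There was 1 library per group: Itga9-Lyz2-cKO with periodontitis (cKO PD), Itga9-Lyz2-cHet with periodontitis (cHet PD), Itga9-Lyz2-cKO control (cKO control) and Itga9-Lyz2-cHet control (cHet control). Periodontitis was set up in both genotypes with a silk suture tied around the upper second molar together with Porphyromonas gingivalis, a bacterium of diseased gums, and gingiva was taken after 14 days. Itga9 encodes the alpha9 chain of an integrin, and Lyz2 is a gene of macrophages, monocytes and neutrophils, so a Lyz2-driven change is not limited to macrophages. The labels do not spell out the alleles, both genotypes carry the Itga9-Lyz2 name, and no group without it was analysed here. The number, age and sex of the mice behind each library are not given in the sources used here. With 1 library per group no difference has a replicate check, and the intervals given below cover counting error only.

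TNF is made as a membrane protein that a protease releases, and macrophages are its best known source. TNFR1, encoded by Tnfrsf1a, is found on most cell types and carries a death domain, while TNFR2, encoded by Tnfrsf1b, is found mainly on blood and endothelial cells. Receptor binding gathers adaptor and ubiquitin-linking proteins, among them cIAP2 (Birc3), and activates the kinase that removes IkB-alpha (Nfkbia) from NF-kB. NF-kB then raises the genes for IkB-alpha and for the ubiquitin-editing enzyme A20 (Tnfaip3), which shut the signal down again, and it also raises Birc3 and Tnfaip2. Lymphotoxin beta (Ltb), a neighbour of Tnf in the genome, is a lymphocyte ligand that acts through a separate receptor. In gingiva, TNF is known as one of the cytokines that drive leukocyte entry and bone loss in periodontitis.

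The deposited matrices held 6684 barcodes for cKO PD, 9072 for cHet PD, 9331 for cKO control and 8767 for cHet control, with 21368197 to 62914870 unique molecular identifiers (UMIs, counts of captured transcripts) per library. The periodontitis libraries were shallower, with a median of 2509 UMIs per barcode in cKO PD and 2934 in cHet PD, against 5076 in cKO control and 5292 in cHet control. The lowest UMI total was 500 in both periodontitis libraries and 1501 in both control libraries, so the shallowest periodontitis barcodes have no counterpart in the control files. Pairs of libraries shared 65 to 116 barcodes. Cells were put in classes by the markers they expressed, and each of the 7 classes used below had 2 to 4 of its own markers, and none of another class, among its 10 leading genes. The fibroblast class also led with the cartilage collagen genes Col2a1, Col9a1 and Col11a1. Cells with UMIs of at least 2 of 5 cartilage genes made up 72 of its 159 cells in cKO PD, 2 of 256 in cHet PD, 9 of 110 in cKO control and 113 of 227 in cHet control. Fibroblast values are therefore also given below for the cells without these genes, a split chosen after the data were seen. Mononuclear phagocytes numbered 93 cells in cKO PD, 192 in cHet PD, 62 in cKO control and 44 in cHet control. Itga9 in them was 21.2 CPM in cKO PD, 94.1 in cHet PD, 39.6 in cKO control and 129 in cHet control, where CPM are UMIs of the gene per 1000000 UMIs of the class. Both cKO libraries were below both cHet libraries, and since the labels do not say which exons are deleted, UMIs from the remaining part of the transcript may be among these.

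In the mouse genome (mm10) Tnf (chr17:35199381-35202007, minus strand) and Ltb (chr17:35194439-35196320, plus strand) lie beside each other, and the other 6 genes lie on other chromosomes. Their promoters, taken from RefSeq on GRCm38.p6 as the 250 bases before to the 50 bases after each start, were searched on both strands for the 10-base NF-kB consensus, since several of these genes are textbook NF-kB targets. The consensus was present in 8.46% of all 32851 promoters of that length, and 1.22% held 2 or more matches. Nfkbia, Tnfaip2 and Ltb held 1 match each, and the first listed start of Tnfaip3 held 2. No match was found in these windows for Tnf, Tnfrsf1a, Tnfrsf1b, Birc3 or the second Tnfaip3 start. The 2 inhibitor genes with matches are printed with Tnf for comparison, each 5′ to 3′ on the strand of its gene, with the matches in capitals. The first base of the match lies 29 bases before the start in Nfkbia, and 125 and 12 bases before it in Tnfaip3.
Nfkbia promoter, chr12:55492598-55492897, minus strand: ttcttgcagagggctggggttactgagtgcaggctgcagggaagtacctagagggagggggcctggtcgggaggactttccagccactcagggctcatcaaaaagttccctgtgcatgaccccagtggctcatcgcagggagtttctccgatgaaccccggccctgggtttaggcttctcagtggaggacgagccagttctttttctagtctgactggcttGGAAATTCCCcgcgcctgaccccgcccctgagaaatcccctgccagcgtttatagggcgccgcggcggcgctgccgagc
Tnfaip3 promoter, first listed start, chr10:19015361-19015660, minus strand: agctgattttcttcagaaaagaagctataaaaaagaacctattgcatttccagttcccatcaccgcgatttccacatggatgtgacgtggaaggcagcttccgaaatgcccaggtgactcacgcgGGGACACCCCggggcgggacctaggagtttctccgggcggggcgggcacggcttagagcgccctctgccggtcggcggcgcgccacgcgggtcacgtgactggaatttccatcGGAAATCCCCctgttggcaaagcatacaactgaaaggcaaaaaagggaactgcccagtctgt
Tnf promoter, chr17:35201958-35202257, minus strand: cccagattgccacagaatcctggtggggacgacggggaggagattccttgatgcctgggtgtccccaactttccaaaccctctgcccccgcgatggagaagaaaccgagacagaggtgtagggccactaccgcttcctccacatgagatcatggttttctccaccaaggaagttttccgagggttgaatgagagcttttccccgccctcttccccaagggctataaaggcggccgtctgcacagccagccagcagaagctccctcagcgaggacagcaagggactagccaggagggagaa

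More of the 8 genes were called higher with periodontitis in the cHet pair than in the cKO pair, and the calls between the periodontitis libraries all ran toward cHet PD. No test of this difference in counts was made. A gene is called higher or lower here when the CPM with 10 added differ at least 2-fold, 1 of the libraries has at least 50 UMIs and the 95% interval of the ratio leaves out 1. Genes that reached 50 UMIs in 1 library of a pair were considered, in classes with at least 40 cells in both. The percentage in parentheses after each count is the share of all genes considered in that class and pair that were called in the same direction. For cHet PD over cHet control, the genes called higher were 3 of 7 in phagocytes (15.5%), 1 of 4 in T and NK cells (13.2%), 3 of 6 in endothelial cells (9.31%), 3 of 6 in fibroblasts (9.19%) and 4 of 7 in the epithelium (4.05%). None was called lower, where the share of all genes was 9.45% in phagocytes, 3.62% in T and NK cells, 5.16% in endothelial cells, 13.1% in fibroblasts and 3.6% in the epithelium. For cKO PD over cKO control they were 1 of 6 in phagocytes (15.2%), 0 of 4 in T and NK cells (5.22%), 1 of 6 in endothelial cells (6.43%), 1 of 5 in fibroblasts (12.4%), 0 of 1 in pericytes (12.9%) and 4 of 6 in the epithelium (1.75%). The 1 called lower was Tnf in phagocytes, where the share of all genes was 15.6%. In the other classes it was 10.8% in T and NK cells, 7.74% in endothelial cells, 18.4% in fibroblasts, 11.6% in pericytes and 2.22% in the epithelium. The epithelium was the class where the members' share stood farthest above that of all genes in both pairs, and in phagocytes of the cKO pair it was close to the background. For cKO PD over cHet PD, the genes called lower were 1 of 7 in phagocytes (7.13%), 5 of 7 in neutrophils (11.4%), 0 of 4 in T and NK cells (5.37%), 0 of 6 in endothelial cells (2.12%), 1 of 6 in fibroblasts (9.11%), 0 of 1 in pericytes (3.83%) and 1 of 7 in the epithelium (0.631%). None was called higher there, beside shares of all genes of 4.25% in phagocytes, 15.4% in neutrophils, 0.551% in T and NK cells, 1.34% in endothelial cells, 6.23% in fibroblasts, 5.75% in pericytes and 0.595% in the epithelium. For cKO control over cHet control, those called higher were 1 of 6 in phagocytes (3.75%), 1 of 4 in T and NK cells (6.13%), 0 of 6 in endothelial cells (1.29%), 0 of 5 in fibroblasts (5.42%) and 0 of 6 in the epithelium (0.263%). None of the 8 was called lower between the controls, beside shares of all genes of 3.75% in phagocytes, 2.53% in T and NK cells, 0.292% in endothelial cells, 7.49% in fibroblasts and 0.183% in the epithelium. Among fibroblasts without cartilage genes, the genes called higher were 3 of 6 in the cHet pair (11.1%) and 1 of 3 in the cKO pair (7.06%), and none was called lower, where the share of all genes was 12.0% in the cHet pair and 20.8% in the cKO pair. None of 6 was called in either direction there between cKO PD and cHet PD, beside 2.06% of all genes called higher and 7.3% lower. The median log2 ratio of the members considered was 1.01, against -0.07 over all 12580 genes considered, in the epithelium of the cHet pair, and 1.10, against -0.03 over all 12229 genes considered, in that of the cKO pair. In neutrophils of cKO PD over cHet PD it was -1.89, against 0.30 over all 3637 genes considered. The number of calls for cKO PD over cKO control was 8, and 5 when Leiden clusters took the place of the marker gate or when cells were thinned to 1000 UMIs. For cKO PD over cHet PD the calls were 0 higher and 8 lower. They became 1 higher and 11 lower after that thinning, and 1 higher and 9 lower without the minimum of 50 UMIs. The comparisons share libraries, since each library enters a periodontitis pair and a genotype pair.

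**Figure D1:**
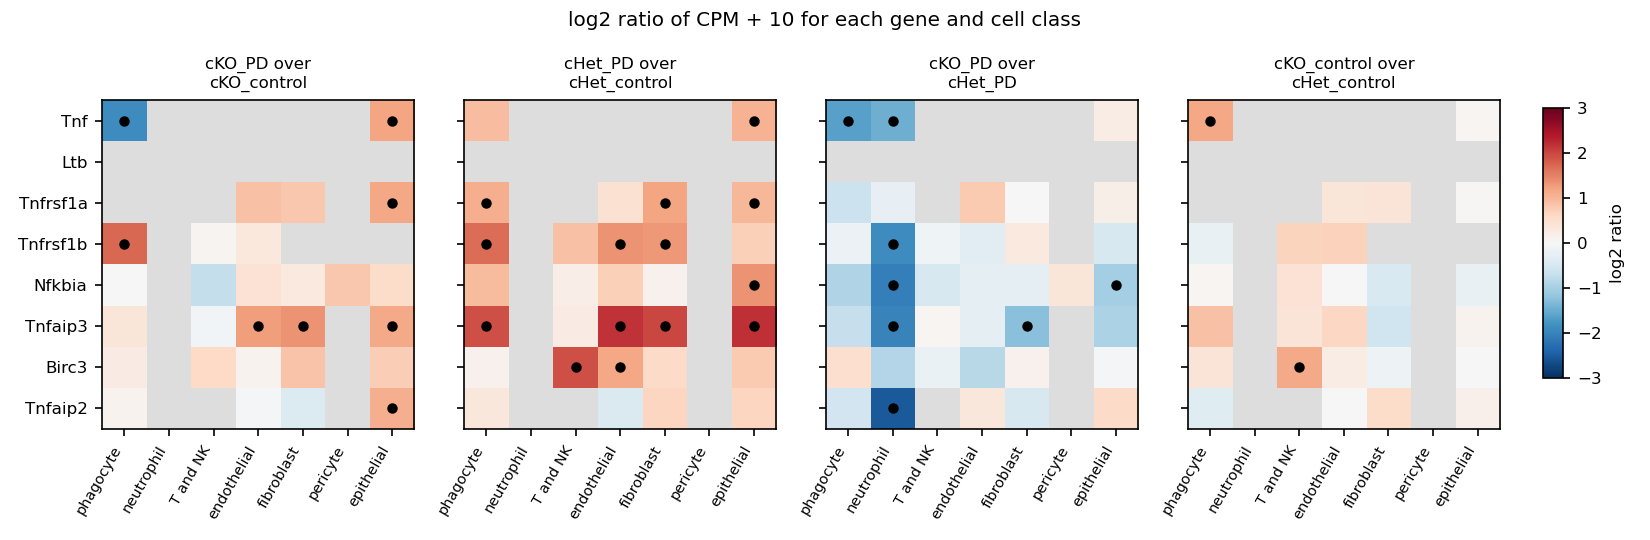
log2 ratio of CPM with 10 added for each of the 8 genes (rows) in 7 cell classes (columns), 1 panel per pair, red where the first library named is higher and blue where it is lower. Black dots mark calls and grey marks a class under 40 cells or a gene under 50 UMIs in both libraries. Epithelial dots are red in both periodontitis pairs, and the neutrophil column of cKO PD over cHet PD holds 5 blue dots.

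Of the 7 classes, the mononuclear phagocytes had the highest Tnf level in all 4 libraries. The Tnf level there did not follow periodontitis in the same direction in both genotypes. It was 343 CPM in cKO PD, 1088 in cHet PD, 1297 in cKO control and 570.3 in cHet control. The 95% Poisson interval was 286 to 407 CPM in cKO PD, 1023 to 1156 in cHet PD, 1194 to 1406 in cKO control and 491 to 659 in cHet control, so none of the 4 overlapped. The cKO PD library was the lowest and the cKO control library the highest. The ratio was 0.264 (0.217 to 0.32) for cKO PD over cKO control and 1.91 (1.63 to 2.24) for cHet PD over cHet control. Between genotypes it was 0.315 (0.26 to 0.378) for cKO PD over cHet PD and 2.27 (1.92 to 2.7) for cKO control over cHet control. By the rule above Tnf in phagocytes was called in every pair but cHet PD over cHet control. None of these calls remained when Leiden clusters took the place of the marker gate. The share of phagocytes with a Tnf UMI was 44.1% in cKO PD, 74.0% in cHet PD, 75.8% in cKO control and 61.4% in cHet control. In fibroblasts, a cell type not known as a source of Tnf, it was 1.89% in cKO PD, 0.391% in cHet PD, 0% in cKO control and 0.441% in cHet control. The median phagocyte had 3375 UMIs in cKO PD, 4338 in cHet PD, 7036 in cKO control and 7427 in cHet control. The median fibroblast had 3249 UMIs in cKO PD, 3978 in cHet PD, 6037 in cKO control and 6442 in cHet control. After every cell was thinned to 1000 UMIs, the share of phagocytes with one was 19.1% in cKO PD, 53.5% in cHet PD, 51.6% in cKO control and 38.6% in cHet control. At that depth 4 cells of cKO PD and 5 of cHet PD were too shallow to enter. The 95% binomial interval of the share before thinning was 33.8 to 54.8% in cKO PD and 45.5 to 75.6% in cHet control, which overlap, and so did the intervals after thinning. The intervals of cHet PD (67.1 to 80%) and cKO control (63.3 to 85.8%) lay above that of cKO PD.

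A large part of the phagocyte Tnf UMIs lay in a few cells in cKO PD, cKO control and cHet control, and a smaller part in cHet PD. Of the phagocyte total, the 5 cells with the most Tnf UMIs held 49.6% in cKO PD, 17.6% in cHet PD, 44.7% in cKO control and 48.1% in cHet control. The class held 93 cells in cKO PD, 192 in cHet PD, 62 in cKO control and 44 in cHet control, so 5 cells are not the same part of each. The single highest cell held 25 UMIs in cKO PD, 56 in cHet PD, 89 in cKO control and 30 in cHet control. A set of 13 immediate early and heat shock genes that tissue handling is known to raise also differed between the libraries in phagocytes, at 7076 CPM in cKO PD, 10105 in cHet PD, 19054 in cKO control and 15644 in cHet control. Over the whole class it was lowest in cKO PD and highest in cKO control, the same ends as Tnf, and its part in the Tnf values was not tested.

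**Figure D2:**
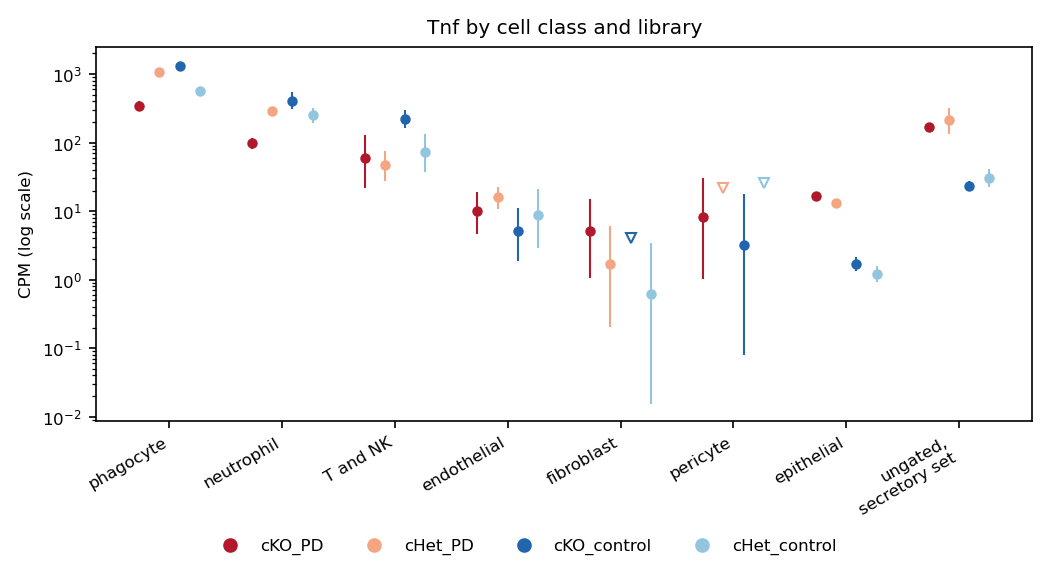
Tnf level in CPM (log axis) for each cell class on the horizontal axis, 1 point per library with its 95% Poisson interval, and an open triangle at the level that 3 UMIs would give where no UMI was counted. Of the classes plotted, phagocytes lie highest in every library, at 343 CPM in cKO PD, 1088 in cHet PD, 1297 in cKO control and 570.3 in cHet control. The epithelial points of the periodontitis libraries lie above those of the controls.

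The phagocyte class did not hold the same cells in every library, and the Tnf differences between the periodontitis libraries depended on which phagocytes were compared. When all cells were clustered by expression, a cluster led by H2-Aa, Cd74, C1qc, C1qb and Mrc1, genes of antigen presentation and resident macrophages, was found (cluster 31). It held a share of the gated phagocytes of 28.0% in cKO PD, 82.3% in cHet PD, 79.0% in cKO control and 86.4% in cHet control. A second cluster, left unnamed, was led by Prg2, Mpo, Plac8, Ly6c2 and Prss34, with F13a1 and Elane among its first 10 genes, a mix of monocyte, granulocyte precursor and basophil genes (cluster 29). It held 72.0% in cKO PD, 17.7% in cHet PD, 19.4% in cKO control and 13.6% in cHet control. Within cluster 31, Tnf was 895 CPM in cKO PD, 1117 in cHet PD, 1575 in cKO control and 616 in cHet control. The ratio there was 0.569 (0.453 to 0.707) for cKO PD over cKO control, 1.81 (1.54 to 2.14) for cHet PD over cHet control, 0.802 (0.643 to 0.989) for cKO PD over cHet PD and 2.56 (2.15 to 3.04) for cKO control over cHet control. Each ratio kept its direction, and that between the periodontitis libraries was much nearer to 1 than over the whole class. Cluster 29 held 67 gated phagocytes in cKO PD, 34 in cHet PD, 12 in cKO control and 6 in cHet control. Within it, Tnf was 123 CPM in cKO PD, 829.9 in cHet PD, 472 in cKO control and 198 in cHet control. The cKO PD over cHet PD ratio was 0.148 (0.0954 to 0.224). Phagocytes with UMIs of at least 2 of the complement genes C1qa, C1qb and C1qc gave 986 CPM in cKO PD, 1104 in cHet PD, 1599.7 in cKO control and 609 in cHet control. There were 22 such cells in cKO PD, 122 in cHet PD, 47 in cKO control and 35 in cHet control. The cKO PD over cHet PD ratio in them was 0.893 (0.705 to 1.12), which is not called. The handling set in them was 15342 CPM in cKO PD, 9526 in cHet PD, 18903 in cKO control and 15527 in cHet control. There it was lowest in cHet PD, whereas Tnf was lowest in cHet control. Cluster 29 held most of the class in cKO PD alone, and it was there that Tnf differed most between the periodontitis libraries.

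Neutrophils came next in the order of the 7 classes, at 98.2 CPM in cKO PD, 288 in cHet PD, 411 in cKO control and 249.5 in cHet control. The control values come from 26 cells of cKO control and 38 of cHet control, too few for a ratio. Between the periodontitis libraries the ratio was 0.34 (0.269 to 0.429) for cKO PD over cHet PD and is called lower. The 2 libraries again held different cells. A cluster led by the granule genes Ngp and Camp (cluster 18) made up 87.6% of the neutrophils in cKO PD, against 7.53% in cHet PD. Another led by Acod1, Slfn4 and Hdc (cluster 15), genes of activated neutrophils among them, made up 10.5% in cKO PD, against 91.8% in cHet PD. Within cluster 18 the Tnf ratio was 0.8 (0.418 to 1.72), and within cluster 15 it was 0.711 (0.389 to 1.21). Both ratios lie below 1 and both intervals include 1. In cluster 18 cHet PD had 10 Tnf UMIs in 42 cells, and in cluster 15 cKO PD had 15 in 76 cells. Such counts cannot tell a lower level from an equal one, and the part of the cell makeup in the class ratio was not tested. In T and NK cells Tnf was 59.8 CPM in cKO PD, 46.6 in cHet PD, 225 in cKO control and 73.8 in cHet control. The cKO control value stood above the others, and the intervals of the remaining 3 libraries overlapped, as did those of T and NK cells and neutrophils in cKO PD (21.9 to 130.1 CPM in T and NK cells and 81.9 to 117 in neutrophils). Endothelial cells had 9.97 CPM in cKO PD, 16.0 in cHet PD, 5.09 in cKO control and 8.92 in cHet control, with overlapping intervals. Fibroblasts had 5.09 CPM in cKO PD, 1.70 in cHet PD, 0 in cKO control and 0.614 in cHet control. Among the 7 classes Tnf was therefore ordered phagocytes, then neutrophils and T and NK cells, then the classes of the tissue itself. Outside them, the few dendritic cells had 126 CPM in cKO PD (3 cells), 274 in cHet PD (17 cells), 159 in cKO control (7 cells) and 864 in cHet control (8 cells), the last above the phagocytes of that library. The endothelial, fibroblast and pericyte values rested on 0 to 30 UMIs per library.

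**Figure D3:**
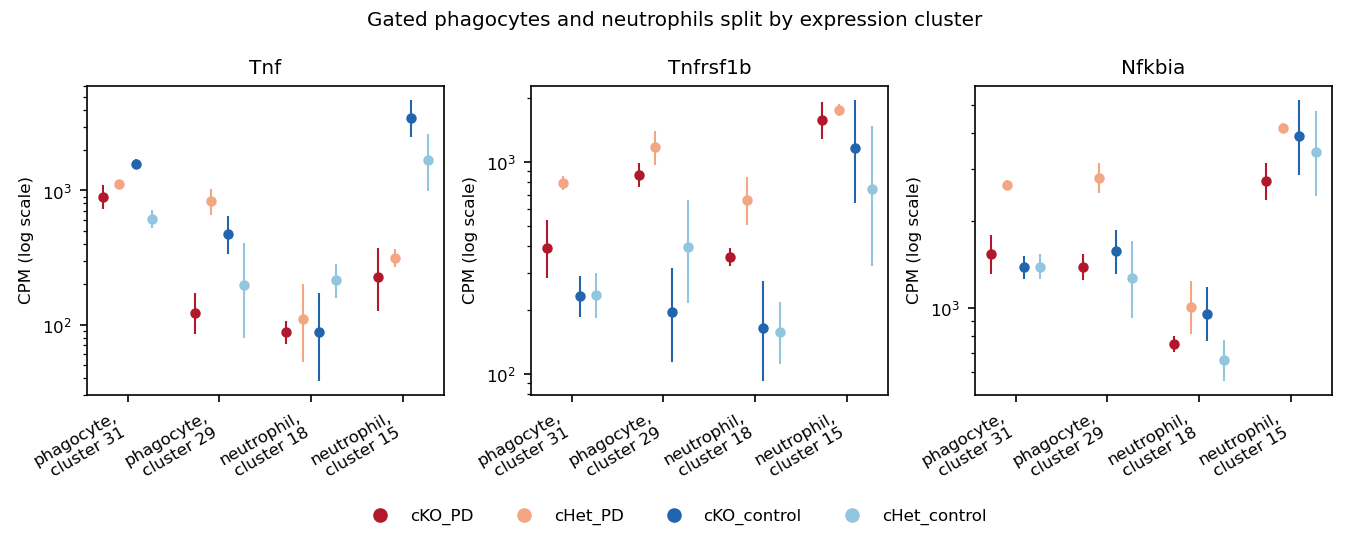
CPM (log axis) of Tnf, Tnfrsf1b and Nfkbia in gated phagocytes of clusters 31 and 29 and gated neutrophils of clusters 18 and 15, 1 point per library with its 95% Poisson interval. In cluster 29 the cKO PD point of Tnf (123 CPM) lies below that of cHet PD (829.9 CPM), whereas in cluster 31 they are closer (895 CPM in cKO PD and 1117 in cHet PD).

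In the epithelium Tnf was low but higher with periodontitis in both genotypes. It was 16.7 CPM in cKO PD, 13 in cHet PD, 1.71 in cKO control and 1.23 in cHet control. The ratio was 9.75 (7.41 to 13) for cKO PD over cKO control and 10.6 (8.04 to 14.2) for cHet PD over cHet control, and both are called. Between the periodontitis libraries it was 1.28 (1.08 to 1.52), and between the control libraries 1.39 (0.969 to 2.01), neither of which is called. The share of epithelial cells with a Tnf UMI was 3.48% in cKO PD, 4.07% in cHet PD, 0.927% in cKO control and 0.714% in cHet control. After thinning to 1000 UMIs it was 1.18% in cKO PD, 1.08% in cHet PD, 0.208% in cKO control and 0.114% in cHet control. The fibroblast shares given above are the background for these, and the periodontitis values of 3.48% in cKO PD and 4.07% in cHet PD were above the 1.89% of fibroblasts in cKO PD and 0.391% in cHet PD. The fibroblast value of cKO PD rests on 3 of 159 cells, and its interval of 0.391 to 5.41% includes the epithelial share, so the epithelial share of cKO PD cannot be told from background by this measure. In cHet PD the fibroblast interval ended at 2.16%, below the epithelial interval of 3.58 to 4.60%. Leukocyte transcripts inside the epithelial cells also differed between libraries: the 14 phagocyte markers summed to 201 CPM in cKO PD, 262 in cHet PD, 135 in cKO control and 173 in cHet control. Of the 14, 11 in cKO PD, 13 in cHet PD, 14 in cKO control and 13 in cHet control were detected. The 12 neutrophil markers summed to 1066 CPM in cKO PD, 57.1 in cHet PD, 186 in cKO control and 95 in cHet control. Markers at 0 were C1qa, C1qb and Fcgr1 in cKO PD, Trem2 in cHet PD, Camp in cKO control and Fcgr1 and Clec4d in cHet control. Without Ltf, which glands make too, the neutrophil markers summed to 43.3 CPM in cKO PD, 36.8 in cHet PD, 11 in cKO control and 9.67 in cHet control. In the epithelial cells that had no UMI of any of the 52 leukocyte markers, Tnf was 9.58 CPM in cKO PD, 10.4 in cHet PD, 1.53 in cKO control and 0.88 in cHet control. There were 1460 such cells in cKO PD, 2018 in cHet PD, 2598 in cKO control and 2858 in cHet control. The ratio in these cells was 6.26 (3.45 to 11.7) for cKO PD over cKO control and 11.9 (6.21 to 24.5) for cHet PD over cHet control. Odam is a gene of the junctional epithelium that seals the gum to the tooth. Epithelial cells with at least 2 UMIs of Odam had more Tnf than the whole epithelial class of the same library. Their level was 39.7 CPM in cKO PD, 40.2 in cHet PD, 11.9 in cKO control and 4.27 in cHet control. They numbered 493 in cKO PD, 358 in cHet PD, 129 in cKO control and 55 in cHet control, where the value rests on few UMIs. Other epithelial states were not compared.

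Over whole libraries, Tnf had 973 UMIs in cKO PD, 2069 in cHet PD, 984 in cKO control and 558 in cHet control. The cells that held them differed. Phagocytes held 13.3% in cKO PD, 50.8% in cHet PD, 59.9% in cKO control and 33.2% in cHet control. Epithelial cells held 22.8% in cKO PD, 17.1% in cHet PD, 7.01% in cKO control and 10.6% in cHet control. Neutrophils held 13.2% in cKO PD, 8.75% in cHet PD, 5.08% in cKO control and 12.0% in cHet control. Cells with markers of 2 classes, set aside as mixed, held 4.11% in cKO PD, 11.7% in cHet PD, 5.08% in cKO control and 19.0% in cHet control. The few dendritic cells held 0.103% in cKO PD, 1.16% in cHet PD, 0.915% in cKO control and 10.4% in cHet control. The largest holder in cKO PD was a group of cells that the marker gate left without a class and that had UMIs of at least 3 of 9 secretory genes, among them Car6, Wfdc18 and Pigr, which are made by glands. This group numbered 335 cells in cKO PD, 14 in cHet PD, 404 in cKO control and 99 in cHet control. Its share of the Tnf UMIs was 39.9% in cKO PD, 1.11% in cHet PD, 14.1% in cKO control and 7.35% in cHet control. Its Tnf level was 167 CPM in cKO PD, 213 in cHet PD, 23.0 in cKO control and 30.9 in cHet control, above the epithelium of the same library in each case. Cells of the group with no UMI of the 52 leukocyte markers, Ltf among them, numbered 4 in cKO PD and 80 in cKO control. In cKO control these had 1 Tnf UMI, at 0.973 CPM (0.0246 to 5.42), against 1.53 in the epithelium without those markers. The 4 cells of cKO PD had 2 Tnf UMIs, too few to tell whether the secretory cells themselves held the Tnf. Phagocyte markers inside the whole group summed to 20.2 CPM in cKO PD, 55.7 in cHet PD, 27.5 in cKO control and 21.8 in cHet control. Of the 14, 4 in cKO PD, 4 in cHet PD, 9 in cKO control and 3 in cHet control were detected. In cKO PD C1qa, C1qb, C1qc, Adgre1, Mrc1, Fcgr1, Ms4a7, F13a1, Ccr2 and Trem2 were at 0. The neutrophil markers without Ltf summed to 18.1 CPM in cKO PD, 74.2 in cHet PD, 2.82 in cKO control and 1.51 in cHet control. Of these 11, 10 in cKO PD, 1 in cHet PD, 4 in cKO control and 1 in cHet control were detected. The cHet PD sum is thus that of Clec4d alone, in 14 cells. The sums, like Tnf, were higher in both periodontitis libraries than in both controls, and the part of these cells' neutrophil markers in the Tnf level was not tested.

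**Figure D4:**
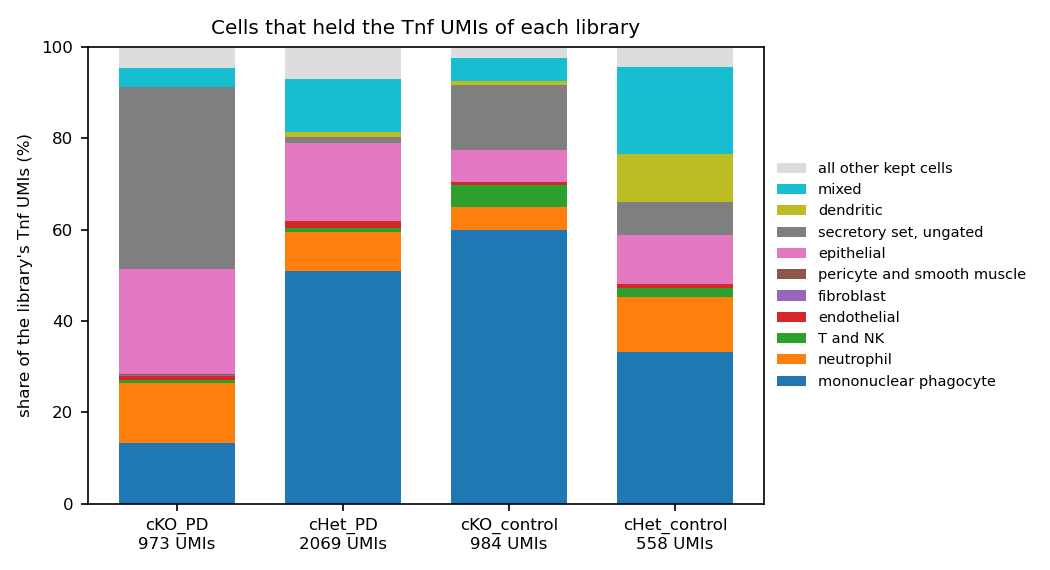
Share of each library's Tnf UMIs (percent, bars stacked to 100) by the cell class that held them, with the number of UMIs under each bar. Phagocytes hold 13.3% in cKO PD and 50.8% in cHet PD, and the ungated cells with secretory genes hold 39.9% in cKO PD and 1.11% in cHet PD.

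Ltb was scarce, with 12 UMIs in cKO PD, 50 in cHet PD, 8 in cKO control and 8 in cHet control over whole libraries. T and NK cells, its textbook source, had 49.8 CPM in cKO PD, 46.6 in cHet PD, 23.4 in cKO control and 33.6 in cHet control. These rest on 5 UMIs in cKO PD, 17 in cHet PD, 5 in cKO control and 5 in cHet control. The intervals of the 4 libraries overlapped, and Ltb reached the 50 UMIs needed for a call in no class of any pair. In phagocytes 0 UMIs were counted in every library, which allows up to 9.25 CPM in the shallowest of the 4 sums. Neutrophils had 3.07 CPM in cKO PD, 25.5 in cHet PD, 0 in cKO control and 0 in cHet control, where 3 counts would give 24.7 CPM in cKO control and 11.2 in cHet control.

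Of the receptors, Tnfrsf1a was spread over leukocyte, vessel, stromal and epithelial classes, and Tnfrsf1b was high in leukocytes. Tnfrsf1a in the epithelium was 92.4 CPM in cKO PD, 80.4 in cHet PD, 36.0 in cKO control and 35.0 in cHet control. Both periodontitis libraries were above both controls, with a ratio of 2.56 (2.37 to 2.77) for cKO PD over cKO control and 2.30 (2.16 to 2.45) for cHet PD over cHet control, and both are called higher. Between genotypes the epithelial ratio was 1.15 (1.07 to 1.23) with periodontitis and 1.03 (0.961 to 1.11) without. Endothelial cells had 186 CPM in cKO PD, 104 in cHet PD, 96.8 in cKO control and 73.1 in cHet control. The cKO PD value stood above the other 3, whose range is narrower. The endothelial ratio of 1.92 (1.51 to 2.46) for cKO PD over cKO control falls short of a call, as does 1.79 (1.45 to 2.21) for cKO PD over cHet PD. In the fibroblast class Tnfrsf1a was 96.7 CPM in cKO PD, 97.2 in cHet PD, 51.0 in cKO control and 36.8 in cHet control. There the cHet PD over cHet control ratio of 2.64 (1.91 to 3.67) is the one called, and without the cells with cartilage genes it was 2.57 (1.70 to 4.01), also called. Phagocytes had 45.2 CPM in cKO PD, 76.5 in cHet PD, 66.0 in cKO control and 30.8 in cHet control, on no more than 74 UMIs per library, and the cHet PD over cHet control ratio of 2.48 (1.28 to 5.39) is called higher. Pericytes and smooth muscle cells, which wrap the vessels, had 158 CPM in cKO PD, 72.8 in cHet PD, 44.5 in cKO control and 26.1 in cHet control. Neutrophils had 64.4 CPM in cKO PD, 78.1 in cHet PD, 173 in cKO control and 67.0 in cHet control. T and NK cells had 39.8 CPM in cKO PD, 24.7 in cHet PD, 18.7 in cKO control and 26.9 in cHet control. Endothelial cells had the highest value in 3 of the 4 libraries, but within a library the intervals of nearly all neighbouring classes overlapped.

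Tnfrsf1b, the receptor that blood cells and endothelium are known for, was higher with periodontitis in phagocytes of both genotypes. It was 730.4 CPM in cKO PD, 832 in cHet PD, 216 in cKO control and 253 in cHet control, and neither periodontitis value was near the control values. The ratio was 3.39 (2.68 to 4.31) for cKO PD over cKO control and 3.29 (2.62 to 4.18) for cHet PD over cHet control, both called. The share of phagocytes with a UMI was 81.7% in cKO PD, 83.3% in cHet PD, 66.1% in cKO control and 65.9% in cHet control. After thinning it was 52.8% in cKO PD, 50.3% in cHet PD, 12.9% in cKO control and 25% in cHet control. Within cluster 31 the level was 392 CPM in cKO PD, 794 in cHet PD, 233 in cKO control and 235 in cHet control. The ratio was 1.68 (1.13 to 2.47) for cKO PD over cKO control, 3.37 (2.63 to 4.39) for cHet PD over cHet control and 0.493 (0.352 to 0.674) for cKO PD over cHet PD. So among the C1q and class II phagocytes alone the cKO PD value lay below the cHet PD value, whereas over the whole class they were close. In neutrophils Tnfrsf1b was 416 CPM in cKO PD, 1563 in cHet PD, 247 in cKO control and 164 in cHet control. The cKO PD over cHet PD ratio was 0.266 (0.239 to 0.296). That ratio was 0.541 (0.412 to 0.721) within cluster 18 and 0.893 (0.723 to 1.09) within cluster 15. Of these only the first, among the granule-rich cells, left out 1. T and NK cells had 378 CPM in cKO PD, 417 in cHet PD, 356 in cKO control and 222 in cHet control, with no call in any pair. Endothelial Tnfrsf1b was 67.6 CPM in cKO PD, 87.9 in cHet PD, 52.6 in cKO control and 28.5 in cHet control. It was called higher in cHet PD over cHet control at 3.08 (1.84 to 5.52) and not in cKO PD over cKO control at 1.28 (0.887 to 1.86). Fibroblast Tnfrsf1b was 57.7 CPM in cKO PD, 45.2 in cHet PD, 9.40 in cKO control and 12.3 in cHet control, higher in each periodontitis library, on 7 to 53 UMIs per library. Pericytes held 0 Tnfrsf1b UMIs in all 4 libraries, which allows up to 26.1 CPM in the shallowest. The epithelium had 2.10 CPM in cKO PD, 6.95 in cHet PD, 0.545 in cKO control and 0.27 in cHet control.

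**Figure D5:**
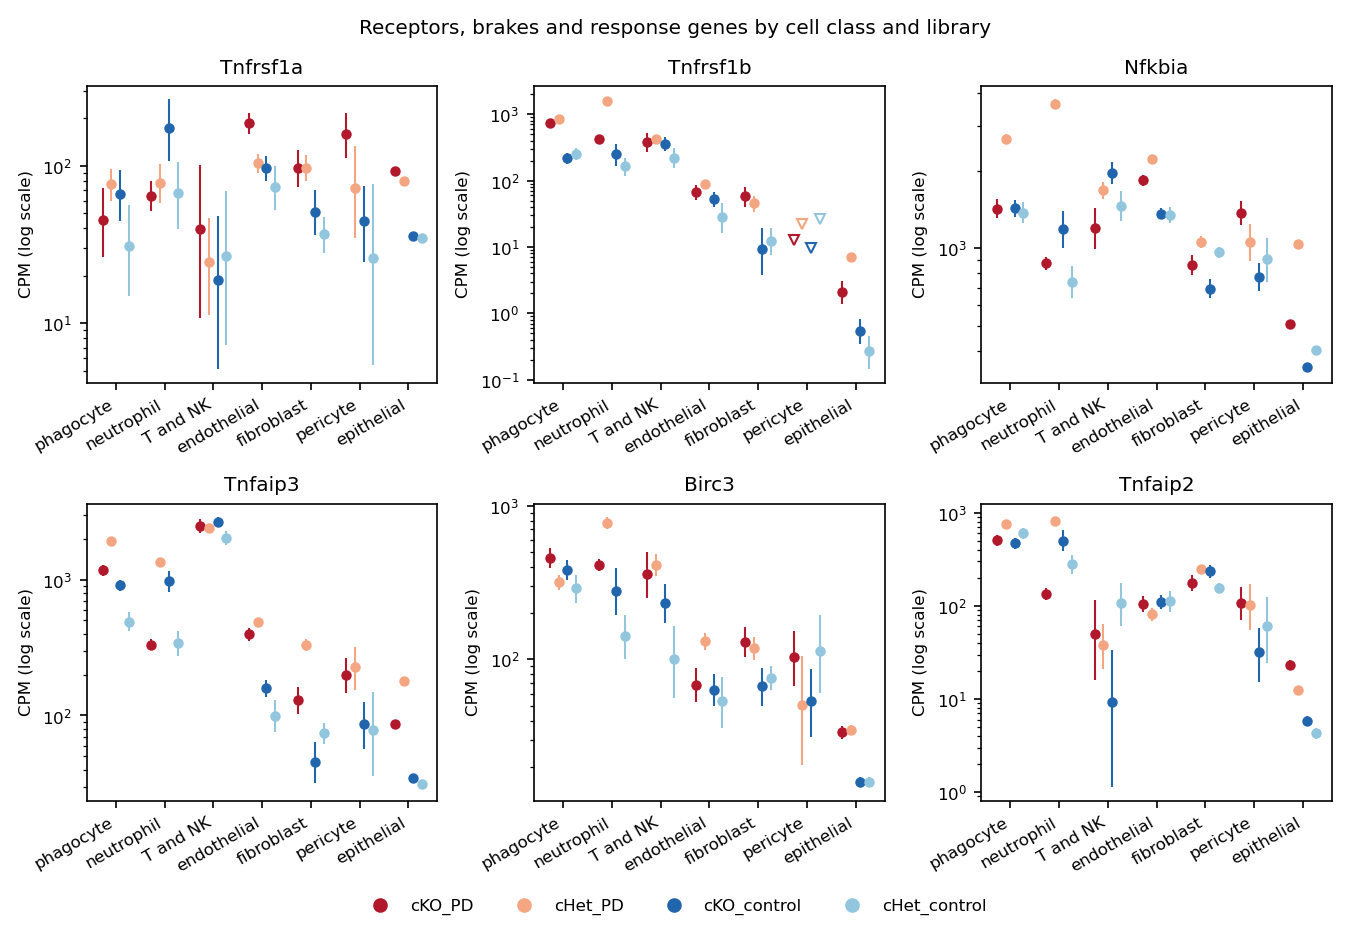
CPM (log axes that differ between panels) of Tnfrsf1a, Tnfrsf1b, Nfkbia, Tnfaip3, Birc3 and Tnfaip2 in 7 cell classes, 1 point per library with its 95% Poisson interval, and an open triangle at the level of 3 UMIs where none was counted. In cKO PD the Tnfrsf1b points lie at 730.4 CPM in phagocytes and 2.10 in the epithelium. The epithelial points of Tnfaip3 lie at 87.2 CPM in cKO PD and 179 in cHet PD, above 34.5 in cKO control and 31.3 in cHet control.

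The inhibitor gene Tnfaip3 was called higher with periodontitis in 4 classes of the cHet pair and in 3 of the cKO pair, and it was called lower in cKO PD than in cHet PD in neutrophils and in the fibroblast class as a whole. Tnfaip3 in the epithelium was 87.2 CPM in cKO PD, 179 in cHet PD, 34.5 in cKO control and 31.3 in cHet control. The ratio was 2.52 (2.33 to 2.73) for cKO PD over cKO control and 5.71 (5.39 to 6.06) for cHet PD over cHet control. In endothelial cells it was 394 CPM in cKO PD, 487 in cHet PD, 159 in cKO control and 99.9 in cHet control. The ratio was 2.48 (2.08 to 2.98) for cKO PD over cKO control and 4.88 (3.72 to 6.51) for cHet PD over cHet control. In fibroblasts it was 131 CPM in cKO PD, 328 in cHet PD, 45.7 in cKO control and 74.3 in cHet control. The ratio was 2.86 (1.89 to 4.42) for cKO PD over cKO control and 4.42 (3.59 to 5.46) for cHet PD over cHet control. All 6 of these ratios are called higher. In endothelial cells with no UMI of the 52 leukocyte markers it was 329.9 CPM in cKO PD, 462 in cHet PD, 6.77 in cKO control and 20.3 in cHet control. The controls had 1 UMI each there, in 43 cells of cKO control and 14 of cHet control. Epithelial cells with none of those markers had 55.6 CPM in cKO PD, 164 in cHet PD, 31.3 in cKO control and 26.6 in cHet control. The ratio in them was 1.78 (1.49 to 2.12) for cKO PD over cKO control, which is under 2-fold, and 6.15 (5.42 to 6.99) for cHet PD over cHet control. Fibroblasts with UMIs of fewer than 2 of 5 cartilage genes gave ratios of 6.66 (3.96 to 11.6) for cKO PD over cKO control and 5.38 (3.96 to 7.44) for cHet PD over cHet control. The cKO PD over cHet PD ratio was 0.398 (0.308 to 0.51) in fibroblasts, which is called lower. Among fibroblasts without cartilage genes it was 0.618 (0.456 to 0.823), which is not called. It was 0.487 (0.457 to 0.519) in the epithelium and 0.81 (0.715 to 0.917) in endothelial cells, which are not called. Among cells with none of the 52 leukocyte markers it was 0.339 (0.289 to 0.397) in the epithelium, which is more than 2-fold. In fibroblasts with none of them it was 0.694 (0.467 to 1.01). In phagocytes Tnfaip3 was 1174 CPM in cKO PD, 1905 in cHet PD, 907 in cKO control and 490.1 in cHet control. It was called higher in cHet PD over cHet control at 3.89 (3.30 to 4.60) and not in cKO PD over cKO control at 1.29 (1.13 to 1.48). T and NK cells were the class with the highest Tnfaip3 in every library, and no pair is called there. Their level was 2479.6 CPM in cKO PD, 2392 in cHet PD, 2636 in cKO control and 2014 in cHet control.

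Nfkbia, the inhibitor that NF-kB rebuilds within its own feedback loop, was present at high levels in every class, and it was called in the epithelium and, as given below, in neutrophils. Epithelial Nfkbia was 508 CPM in cKO PD, 1037 in cHet PD, 344 in cKO control and 403 in cHet control. The ratio was 2.57 (2.52 to 2.62) for cHet PD over cHet control, called higher, and 1.48 (1.43 to 1.52) for cKO PD over cKO control, which is not called. For cKO PD over cHet PD it was 0.49 (0.477 to 0.503), called lower. Thinned to 1000 UMIs per cell, the share of epithelial cells with an Nfkbia UMI was 29% in cKO PD, 46.6% in cHet PD, 23.2% in cKO control and 27.8% in cHet control. The handling set in the epithelium was 14173 CPM in cKO PD, 14681 in cHet PD, 8334 in cKO control and 11025 in cHet control, nearly the same in both periodontitis libraries. In phagocytes Nfkbia was 1426 CPM in cKO PD, 2666 in cHet PD, 1431 in cKO control and 1375 in cHet control, with only cHet PD apart from the others. The cHet PD over cHet control ratio of 1.94 (1.75 to 2.15) falls just short of a call. Within cluster 31 the cKO PD over cHet PD ratio was 0.577 (0.489 to 0.676) and within cluster 29 it was 0.493 (0.421 to 0.579), so both sets of phagocytes were lower in cKO PD. Endothelial cells had 1836 CPM in cKO PD, 2223 in cHet PD, 1359 in cKO control and 1343 in cHet control. Both periodontitis libraries were above both controls, by less than 2-fold. Fibroblasts had 862 CPM in cKO PD, 1056 in cHet PD, 697 in cKO control and 963 in cHet control. T and NK cells, in which no pair is called, had 1195 CPM in cKO PD, 1677 in cHet PD, 1967 in cKO control and 1463 in cHet control.

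In neutrophils all of Tnfrsf1b, Nfkbia, Tnfaip3, Tnfaip2 and Tnf were called lower in cKO PD than in cHet PD, and each ratio was nearer to 1 within the clusters named above than over the class. Among the neutrophils with granule genes, 501 cells in cKO PD and 22 in cHet PD, 1 of these 5 calls was left, that of Tnfrsf1b. There the log2 ratio was 0.26 for Tnfaip3 and 1.52 for Tnfaip2, both turned toward cKO PD and neither called. Nfkbia was 876 CPM in cKO PD, 3635 in cHet PD, 1185 in cKO control and 741 in cHet control. The cKO PD over cHet PD ratio was 0.241 (0.224 to 0.259). Within cluster 18 that ratio was 0.747 (0.602 to 0.936) and within cluster 15 0.654 (0.559 to 0.761), so both remained below 1 and neither reached 2-fold. Tnfaip3 was 331 CPM in cKO PD, 1348 in cHet PD, 971 in cKO control and 339 in cHet control. The ratio was 0.246 (0.218 to 0.276) over the class, 0.832 (0.564 to 1.27) within cluster 18 and 0.874 (0.696 to 1.09) within cluster 15. Both of the cluster intervals for Tnfaip3 include 1. Tnfaip2 was 133 CPM in cKO PD, 816 in cHet PD, 502 in cKO control and 279 in cHet control. The ratio was 0.164 (0.137 to 0.195) over the class, 1.05 (0.556 to 2.25) within cluster 18 and 0.45 (0.298 to 0.654) within cluster 15. The median neutrophil had 1409 UMIs in cKO PD and 978 in cHet PD. The handling set in neutrophils was 3803 CPM in cKO PD and 7740.3 CPM in cHet PD, and its part in these ratios was not tested.

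Birc3, which encodes an anti-death ubiquitin ligase, was called in lymphocytes and endothelium, and Tnfaip2, a cytokine-induced gene of vessels and myeloid cells, in epithelium and neutrophils. Birc3 in T and NK cells was 359 CPM in cKO PD, 411 in cHet PD, 234 in cKO control and 101 in cHet control. It was called higher in cHet PD over cHet control at 4.08 (2.40 to 7.48) and in cKO control over cHet control at 2.33 (1.28 to 4.46). The cHet control value in that class rests on 15 UMIs in 43 cells. Endothelial Birc3 was 68.7 CPM in cKO PD, 131 in cHet PD, 63.7 in cKO control and 53.5 in cHet control. The cHet PD over cHet control ratio of 2.45 (1.67 to 3.71) is called higher. The cHet PD library was the one apart in endothelial cells, with the other 3 close together. In phagocytes Birc3 was 457 CPM in cKO PD, 319 in cHet PD, 381 in cKO control and 289.8 in cHet control, with ratios under 2-fold in every pair. In the epithelium Birc3 was 33.5 CPM in cKO PD, 35.0 in cHet PD, 16.0 in cKO control and 16.0 in cHet control. Both periodontitis libraries were above both controls there, with no call. Tnfaip2 in the epithelium was 23.4 CPM in cKO PD, 12.5 in cHet PD, 5.82 in cKO control and 4.28 in cHet control. It was called higher in cKO PD over cKO control at 4.02 (3.39 to 4.79), and its ratio of 2.92 (2.45 to 3.49) for cHet PD over cHet control is not called. In phagocytes it was 505 CPM in cKO PD, 759 in cHet PD, 469 in cKO control and 601 in cHet control. In endothelial cells Tnfaip2 was 105 CPM in cKO PD, 81.0 in cHet PD, 110.4 in cKO control and 112 in cHet control, and in fibroblasts it was 175 CPM in cKO PD, 247 in cHet PD, 234 in cKO control and 155 in cHet control. Fibroblasts gave 0.748 (0.581 to 0.96) for cKO PD over cKO control and 1.59 (1.34 to 1.89) for cHet PD over cHet control, on opposite sides of 1 and neither called. Without the cells with cartilage genes they gave 1.01 (0.736 to 1.38) for cKO PD over cKO control and 1.51 (1.22 to 1.87) for cHet PD over cHet control, no longer on opposite sides.

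In the ungated secretory cells 4 of the 6 genes considered were called higher in cKO PD than in cKO control, beside 6.22% of all 8636 genes considered. None of the 6 was called lower, beside 9.22% of all genes. Tnfaip2 there was 461 CPM in cKO PD, 538 in cHet PD, 52.9 in cKO control and 200.2 in cHet control. Tnfrsf1a was 106 CPM in cKO PD, 92.8 in cHet PD, 22.9 in cKO control and 39.1 in cHet control. For cKO PD over cKO control the ratio was 7.26 (5.96 to 8.87) for Tnf, 4.61 (3.73 to 5.73) for Tnfrsf1a, 2.63 (2.18 to 3.19) for Birc3 and 8.73 (7.69 to 9.92) for Tnfaip2. The cHet PD library held 14 such cells, fewer than the 40 needed, so no ratio with it is read.

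The rest of the pathway was read from 66 genes in 6 lists: processing of TNF and related ligands, the receptor complex, kinase and NF-kB subunits, inhibitors, the cell death branch, and response genes. In the cHet pair these gave 12 higher and 2 lower of 40 considered in phagocytes, 11 higher and 2 lower of 42 considered in endothelial cells, 11 higher and 5 lower of 36 considered in fibroblasts and 7 higher and 2 lower of 63 considered in the epithelium. In the cKO pair they gave 7 higher and 9 lower of 32 considered in phagocytes, 7 higher and 1 lower of 39 considered in endothelial cells, 9 higher and 4 lower of 24 considered in fibroblasts and 4 higher and 2 lower of 61 considered in the epithelium. T and NK cells gave 3 higher and 1 lower of 20 considered in the cHet pair, and 0 higher and 4 lower of 10 in the cKO pair. Pericytes of the cKO pair gave 4 higher and 3 lower of 13 considered. The shares of all genes called in each direction in these classes and pairs are those given with the 8 genes. In each of these the response genes, the longest list at 17 genes, held more calls than any other list, and the receptor complex held 0 to 2. By share of the genes considered, other lists led in some. The receptor complex had 1 higher and 1 lower of 3 in phagocytes of the cKO pair, against 2 higher and 5 lower of 14 response genes. The death branch had 3 higher of 5 in endothelial cells of the cHet pair, against 5 higher and 1 lower of 14. In the cKO pair the subunits had 2 higher of 2 in fibroblasts and 1 of 1 in pericytes. In the remaining ones the response genes led by share as well. The median log2 ratio of the 66 genes in the cHet pair was 0.43, against 0.13 over all 3122 genes considered, in phagocytes, 0.22, against 0.13 over all 5443 genes considered, in endothelial cells, 0.04, against -0.06 over all 5321 genes considered, in fibroblasts, and 0.21, against -0.07 over all 12580 genes considered, in the epithelium. In the cKO pair it was -0.26, against 0.05 over all 2014 genes considered, in phagocytes, 0.01, against 0.02 over all 4340 genes considered, in endothelial cells, 0.55, against -0.16 over all 3133 genes considered, in fibroblasts, and 0.14, against -0.03 over all 12229 genes considered, in the epithelium. In T and NK cells it was 0.44, against 0.23 over all 1464 genes considered, in the cHet pair. There it was -0.47, against -0.09 over all 747 genes considered, in the cKO pair. Pericytes of the cKO pair gave -0.09, against 0.13 over all 1189 genes considered. Among ligand-processing genes, Timp3, which encodes an inhibitor of the protease that releases TNF, was called lower in both pairs in 3 classes. Its cKO PD over cKO control ratio was 0.406 (0.385 to 0.429) in endothelial cells, 0.462 (0.417 to 0.513) in fibroblasts and 0.377 (0.346 to 0.411) in the epithelium. For cHet PD over cHet control the Timp3 ratio was 0.315 (0.299 to 0.333) in endothelial cells, 0.34 (0.31 to 0.372) in fibroblasts and 0.375 (0.343 to 0.409) in the epithelium. Zfp36, which encodes a protein that destabilises Tnf mRNA, was called lower in phagocytes of the cKO pair at 0.263 (0.239 to 0.289) and in fibroblasts of the cHet pair at 0.398 (0.375 to 0.422), which became 0.387 (0.362 to 0.413) without cartilage genes. It is also an immediate early gene. In the receptor complex, the adaptor gene Traf1 was called higher in phagocytes of both pairs, at 3.46 (2.28 to 5.40) for cKO PD over cKO control and 3.36 (2.14 to 5.53) for cHet PD over cHet control. The kinase gene Ripk1 was called lower in phagocytes of the cKO pair, at 0.374 (0.208 to 0.645).

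Of the subunits and inhibitors, the precursor gene Nfkb1 and the A20-binding gene Tnip1 were called in the same class in both genotypes. Nfkb1 was called higher in endothelial cells at 2.41 (1.99 to 2.92) for cKO PD over cKO control and 2.18 (1.74 to 2.75) for cHet PD over cHet control. In fibroblasts it was called higher at 3.11 (2.44 to 4.0) for cKO PD over cKO control and 2.50 (2.22 to 2.82) for cHet PD over cHet control. Tnip1 was called higher in phagocytes at 5.88 (3.73 to 9.65) for cKO PD over cKO control and 4.18 (2.47 to 7.62) for cHet PD over cHet control. In endothelial cells it was called higher at 6.18 (3.50 to 11.6) for cKO PD over cKO control and 4.65 (2.93 to 7.84) for cHet PD over cHet control. These partners of A20 and NF-kB were thus higher in the vessels of both genotypes, as Tnfaip3 was. In the death branch, Cflar, which encodes the caspase-8 inhibitor c-FLIP, was called higher in phagocytes at 2.88 (2.32 to 3.61) for cKO PD over cKO control and 5.17 (4.02 to 6.73) for cHet PD over cHet control. In endothelial cells of the cHet pair Ripk3 and Cflar were called higher, at 20.0 (3.47 to 802) for the necroptosis kinase gene Ripk3 and 2.84 (2.22 to 3.69) for Cflar, where cHet control had 1 UMI of Ripk3.

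The response genes, cytokines, chemokines and adhesion molecules that TNF is known to raise, had their largest median ratio in fibroblasts. In the cHet pair 9 higher and 2 lower of 14 considered were called in fibroblasts, with a median log2 ratio of 2.44, against -0.06 over all 5321 genes considered. Cxcl2, a neutrophil chemokine, had a ratio of 62.3 (37.5 to 112) for cHet PD over cHet control, the monocyte chemokine Ccl2 16.9 (15 to 19.2) and Il6 16.9 (12.7 to 23.0). The cells with cartilage genes, 113 of 227 fibroblasts in cHet control against 2 of 256 in cHet PD, enter these values. Without them 9 higher and 1 lower of 13 considered were called, with a median of 2.31, against 0.08 over all 4096 genes considered. The ratio was then 36.7 (20.9 to 71.4) for Cxcl2, 8.06 (7.14 to 9.14) for Ccl2 and 8.72 (6.46 to 12.0) for Il6. In the cKO pair 7 higher and 2 lower of 13 considered were called, with a median of 1.29, against -0.16 over all 3133 genes considered. The leading genes were Il6 at 9.67 (6.41 to 15.2), the adhesion gene Vcam1 at 9.20 (5.60 to 16.0) and the prostaglandin enzyme gene Ptgs2 at 8.07 (6.59 to 9.95). Without cartilage genes 8 higher and 2 lower of 12 considered were called in the cKO pair, with a median of 1.85, against -0.26 over all 2607 genes considered. The ratio was then 20.1 (13.2 to 31.8) for Il6, 13.1 (7.19 to 26.0) for Vcam1 and 23.8 (15 to 39.9) for Ptgs2. Between the periodontitis libraries 2 higher and 5 lower of 13 considered were called in fibroblasts, beside 6.23% of all genes called higher and 9.11% lower. The median log2 ratio was -0.72, against -0.15 over all 3963 genes considered. Among the calls were Ccl2 at 0.0753 (0.0628 to 0.0898), Cxcl2 at 0.121 (0.0863 to 0.166) and Cxcl1 at 0.186 (0.169 to 0.205) for cKO PD over cHet PD. Cells with cartilage genes were 72 of 159 in cKO PD and 2 of 256 in cHet PD. Without them 0 higher and 5 lower of 12 considered were called, beside 2.06% of all genes called higher and 7.3% lower. The median was then -0.33, against -0.12 over all 3793 genes considered. The ratio was then 0.162 (0.135 to 0.193) for Ccl2, 0.23 (0.159 to 0.322) for Cxcl2 and 0.276 (0.245 to 0.31) for Cxcl1, all still called lower. In neutrophils the 66 genes gave 1 higher and 18 lower of 41 considered for cKO PD over cHet PD, beside 15.4% of all genes called higher and 11.4% lower. Among them were Ptgs2 at 0.061 (0.0421 to 0.086) and Traf1 at 0.21 (0.164 to 0.267), in classes made up of different clusters as described above. In phagocytes they gave 2 higher and 9 lower of 39 considered, beside 4.25% of all genes called higher and 7.13% lower. Those lower included Cxcl1 at 0.188 (0.159 to 0.221) and Ptgs2 at 0.191 (0.167 to 0.217). Those higher included the inhibitor gene Tnip3 at 2.22 (1.67 to 2.95). The phagocyte classes, too, were made up of different clusters as described above. In the epithelium 0 higher and 0 lower of 63 considered were called, beside 0.595% of all genes called higher and 0.631% lower. Between the control libraries the 66 genes gave 4 higher and 0 lower of 29 considered in phagocytes, beside 3.75% of all genes called higher and 3.75% lower. In the epithelium of the controls they gave 0 higher and 0 lower of 60 considered, beside 0.263% higher and 0.183% lower. In phagocytes of the cKO pair 2 higher and 5 lower of 14 considered were called, with a median of -0.41, against 0.05 over all 2014 genes considered. In phagocytes of the cHet pair 7 higher and 2 lower of 13 considered were called, with a median of 1.02, against 0.13 over all 3122 genes considered. The handling set in phagocytes, given with Tnf above, was lower in both periodontitis libraries than in both controls.

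The genes whose levels ran most like Tnf over the 25 combinations of class and library with at least 40 cells were Il10ra (r = 0.94), Ccl4 (0.93), Milr1 (0.92), Nckap1l (0.92) and Fermt3 (0.92), by Pearson r on log2(CPM + 10) among 12640 genes. The points share libraries and classes, so these values are descriptions and carry no test, and they mostly follow which classes express a gene. The top 3 were Crk (0.83), Rhob (0.81), Bag3 (0.77) for Tnfrsf1a, Traf1 (0.95), Lcp1 (0.95), Srgn (0.95) for Tnfrsf1b. For the inhibitors they were Msn (0.89), Tgoln1 (0.88), Herc6 (0.85) for Nfkbia and Gna13 (0.94), Dusp5 (0.94), Zc3hav1 (0.93) for Tnfaip3. Traf1, the closest to Tnfrsf1b, is itself a TNF receptor adaptor gene from the receptor complex list. For the remaining genes they were Bcl2l11 (0.95), Btg1 (0.92), Il17ra (0.92) for Birc3 and Ttyh3 (0.87), Mcl1 (0.85), Lhfpl2 (0.85) for Tnfaip2, and Ltb had too few UMIs to be ranked. Between members, r was 0.91 for Birc3 with Tnfrsf1b, 0.86 for Tnfaip3 with Tnfrsf1b, 0.81 for Tnf with Tnfrsf1b and -0.24 for Tnf with Tnfrsf1a.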

How the data were processed

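Single-cell RNA libraries of gingiva were measured in 4 samples, 1 per group, grouped by the genotype and treatment in the labels. The submitters' processing notes name fastp, STARsolo 2.7.10a and the mm10 build. The capture kit is BD Rhapsody in the extraction label and 10x Genomics in the description label. The deposited matrices hold UMI counts that the authors did not normalize, checked as whole numbers. Totals ran from 21368197 to 62914870 UMIs per library, which limits scarce genes such as Ltb to a few UMIs.

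From these counts, cells with at least 200 genes and at most 20% mitochondrial UMIs were kept, which left 6595 in cKO PD, 8967 in cHet PD, 7673 in cKO control and 7915 in cHet control. A cell was put in the non-epithelial class with the largest share of its markers detected, given at least 3. It was set aside as mixed where another class reached more than 0.6 of that share or epithelial markers exceeded 100 UMIs per 10000. Epithelial cells had at least 4 epithelial markers, at least 100 UMIs of them per 10000 and fewer than 3 markers of every other class. No doublet caller was run. UMIs were summed per class and library, scaled to CPM over all genes, and given exact Poisson intervals; ratios have exact conditional binomial intervals at 95%, shares exact binomial intervals. UMIs of cells in 1 library are not replicates, so no p-value was computed. Clusters came from scanpy 1.11.5 with leidenalg 0.10.2, thinning drew 1000 UMIs per cell, and edgeR 4.0.16 gave the TMM factors. The call rule was tested on simulated Poisson counts that had no spread between cells or libraries, so that test does not cover such spread. A count of 0 allows up to 3 counts.

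The 8 genes, the lists and the call rule were chosen with earlier results of these data known. From the lists, up to 3 genes with the largest called ratio were to be named per list, class and pair, beside genes shared by both pairs. Alternatives were Leiden clusters, a stricter gate, a common UMI floor, thinning, a 10% mitochondrial cap, TMM, no UMI minimum and the mean of the cells' own CPM. Leaving out the 5 highest cells and splitting phagocytes by C1q, neutrophils by granule genes and fibroblasts by cartilage genes were chosen after seeing the data.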

Additional observations from a re-analysis of the deposited data

Results flagged for a closer look

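Tnf in mononuclear phagocytes had a ratio of 0.264 for cKO PD over cKO control and 1.91 for cHet PD over cHet control, on opposite sides of 1 with intervals that leave out 1. Tnfaip2 in fibroblasts had a ratio of 0.748 for cKO PD over cKO control and 1.59 for cHet PD over cHet control, likewise on opposite sides of 1. Among fibroblasts without cartilage genes it was 1.01 for cKO PD over cKO control and 1.51 for cHet PD over cHet control, no longer on opposite sides. With 1 library per group, neither difference between genotypes was tested.

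Cells that the marker gate left without a class, and that had UMIs of at least 3 secretory genes, enter no comparison of the 7 classes, and in them 4 of the 6 genes considered were called higher in cKO PD than in cKO control, beside 6.22% of all 8636 genes considered. In them Tnf was 167 CPM in cKO PD and 23.0 CPM in cKO control, and Tnfrsf1a was 106 CPM in cKO PD and 22.9 CPM in cKO control. Tnfaip2 was 461 CPM in cKO PD and 52.9 CPM in cKO control, and Birc3 was 96.5 CPM in cKO PD and 36.6 CPM in cKO control.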

How the results depend on the processing

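No paired analysis was possible because a group held only 1 library, and for the same reason no replicate could be left out. Of the 32 called values, all kept their sign under the alternatives that keep the classes whole, and those still called numbered 22 with Leiden clusters, 29 with a stricter gate, 29 with a common UMI floor, 20 after thinning, 28 of 30 under the mitochondrial cap, 32 with TMM scaling, 32 with no minimum of UMIs, 26 by the mean of the cells' own CPM and 28 without the 5 highest cells. The number of members called for cKO PD over cKO control was 8 and became 5 with Leiden clusters, 5 after thinning and 13 with no minimum, and for cKO control over cHet control it was 2 and became 0 after thinning and 4 with no minimum.

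The Tnf log2 ratio in phagocytes kept its sign under every alternative run and moved as follows. For cKO PD over cKO control it was -1.89, and -0.81 with Leiden clusters, -1.31 after thinning, -1.29 by the mean of the cells' CPM, -0.69 in phagocytes with C1q and -1.61 in those without. For cHet PD over cHet control it was 0.92, and 0.36 with Leiden clusters, 1.21 with TMM scaling, 1.45 without the 5 highest cells and 1.29 without C1q. For cKO PD over cHet PD it was -1.64, and -0.48 with Leiden clusters, -1.17 after thinning, -1.91 with TMM scaling, -1.14 by the mean of the cells' CPM, -2.30 without the 5 highest cells, -0.16 with C1q and -2.68 without C1q. For cKO control over cHet control it was 1.17, and 0.69 with Leiden clusters, 0.86 after thinning and 0.22 without C1q. With Leiden clusters Tnf in phagocytes was called in no pair. The cKO control over cHet control call was also lost after thinning and without C1q. The calls of cKO PD over cKO control and over cHet PD were also lost with C1q. The cHet PD over cHet control ratio became called with TMM scaling, without the 5 highest cells and without C1q.

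The values that changed sign were neutrophil log2 ratios of cKO PD over cHet PD among cells with granule genes, 0.26 for Tnfaip3 and 1.52 for Tnfaip2. Of the called values, 4 of 7 phagocyte ones were still called with C1q and 5 of 7 without, 1 of 5 neutrophil ones with granule genes and 2 of 5 without, and 4 of 5 fibroblast ones among cells without cartilage genes. The cause of these changes was not tested, beyond the cluster values given in the report. These splits and the 5-cell alternative were chosen after seeing the data. The C1q and granule splits compare some groups of fewer than 40 cells.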
